A study of Mus musculus with 6 samples.

Results

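Histone genes were examined in RNAseq libraries of resting bone-marrow-derived macrophages (BMDMs) that were prepared from total RNA after removal of ribosomal RNA. Of the 22248 genes with a deposited value, 58 were taken by their symbol. They comprise 48 genes of the Hist clusters, which encode the replication-dependent histones, and 10 genes of variant histones (*H1f0*, *H1fx*, *H2afj*, *H2afv*, *H2afx*, *H2afy*, *H2afy2*, *H2afz*, *H3f3a* and *H3f3b*). BMDMs differentiate in culture from marrow cells under macrophage colony-stimulating factor, and they received no stimulus here. The 3 control libraries came from Lyz2cre mice and the 3 CITED2-deficient libraries from Cited2 fl/fl:Lyz2cre mice. All were on the C57BL/6 strain and labelled as postnatal week 10, whereas the paper states a younger age for the marrow donors. Both genotypes carry Cre recombinase, which the *Lyz2* locus drives in myeloid cells and which removes the floxed part of *Cited2* only in cells in which it has acted. CITED2 is a nuclear cofactor that binds p300 and CBP, and the comparison asks which RNAs differ when it is lost. The design text gives 3 mice, and p-values measure the spread between the 3 libraries of a group.

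*Cited2* checks the genotype. Its FPKM (fragments per kilobase of transcript, scaled to the size of the library, a level per length) was 71.7, 79.3 and 75.5 in control libraries, but 9.27, 7.22 and 7.53 in those of CITED2-deficient BMDMs. The recovered depth was 17289286 to 18952077 fragments in control libraries and 22583995 to 26100410 in CITED2-deficient libraries, on average 1.344 times the control depth. Macrophage genes such as *Adgre1* and *Csf1r* were abundant in all 6 libraries. The 7 macrophage markers summed to 5593 to 5664 FPKM in control and 5278 to 5357 FPKM in CITED2-deficient libraries. The tests below compare log2(FPKM + 1) with limma for genes with a mean of at least 1 FPKM, with p-values adjusted over all 11687 such genes by the Benjamini-Hochberg method and a threshold of 0.05. Fold changes on this scale understate the change of genes with low values. Among all tested genes, 51.3% were past the threshold, 16.7% were called higher and 34.6% lower in CITED2-deficient BMDMs, and the median log2 fold change was -0.10. The shares depend on the scaling of the libraries, since median-ratio scaling gave 23.1% higher and 21.3% lower.

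Histones package DNA into nucleosomes, each built of histones H2A, H2B, H3 and H4 and closed by linker histone H1. Genes of the Hist clusters are transcribed mainly in S phase to supply new chromatin, and most of their mRNAs have no introns and end just behind a conserved stem-loop in place of a poly(A) tail. The stem-loop is bound by SLBP, and a complex with the U7 small nuclear RNA guides the cleavage of the transcript behind it. Variant histones are made throughout the cell cycle, usually from genes with introns and as mRNAs with a poly(A) tail. They replace the canonical proteins in non-dividing cells such as mature macrophages. Some genes of the Hist clusters also give polyadenylated transcripts in differentiated cells.

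The stem-loops of 7 genes are shown because most Hist mRNAs end just behind one, whereas annotated transcripts can run further. FPKM is a level per annotated length. The part of the annotated end in the levels was not tested. The first 5 are the stem-loops of tested genes of the Hist clusters, *Hist1h4h* is the most abundant gene whose annotated transcripts end near the stem-loop, and *H2afx* is the single variant gene that has one. Each line gives 30 bases of the GENCODE vM21 transcript, 5′ to 3′ on the transcript strand, with the 16 bases of the stem-loop in capitals.
Hist1h1c: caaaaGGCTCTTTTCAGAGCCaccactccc
Hist1h2bg: ccaaaGGCTCTTTTCAGAGCCacccatact
Hist1h4i: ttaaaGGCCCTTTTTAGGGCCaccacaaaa
Hist3h2a: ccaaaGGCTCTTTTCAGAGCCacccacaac
Hist1h2ae: acaaaGGCTCTTTTCAGAGCCattcactta
Hist1h4h: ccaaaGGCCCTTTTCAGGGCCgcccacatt
H2afx: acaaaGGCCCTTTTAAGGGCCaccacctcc

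In mm10 these windows lie at chr13:23739507-23739536 for *Hist1h1c* (plus strand), chr13:23571838-23571867 for *Hist1h2bg* (plus) and chr13:22040957-22040986 for *Hist1h4i* (minus). The windows of *Hist3h2a*, *Hist1h2ae*, *Hist1h4h* and *H2afx* are chr11:58955167-58955196 (plus), chr13:23570659-23570688 (minus), chr13:23531453-23531482 (plus) and chr9:44335235-44335264 (plus). All lie behind the stop codon, in the 3′ untranslated region, 24 to 46 bases from it for these 7 genes. The search was for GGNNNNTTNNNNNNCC on the transcript strand, with the first 6 letters pairing with the last 6. It was found in 301 of 141767 transcripts of the annotation (0.212%), and a match is a description of the letters only. The H2A, H2B and H1 genes shown share the capitals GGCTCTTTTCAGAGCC, whereas the H4 genes and *H2afx* have a stem that begins with GGCCC. The annotated transcript runs on for 840 bases behind the stem-loop in *Hist1h1c*, 155 in *Hist1h2bg*, 330 in *Hist1h4i*, 1643 in *Hist3h2a*, 151 in *Hist1h2ae* and 822 in *H2afx*, but for 46 bases in *Hist1h4h*.

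Most genes of the Hist clusters were close to 0 in these libraries, while the variant histones were abundant. Over the 6 libraries, the mean FPKM of the variant genes reached 399 for *H3f3b*, and 8 of the 10 passed 1 FPKM. Of the 48 Hist genes, 8 passed 1 FPKM, 16 had a mean below 0.1 FPKM, and 20 had at least 1 fragment in every library. *Hist1h1c*, which encodes a linker histone of the H1 family, and *Hist1h2bc*, an H2B gene, together made up 81.0 to 84.7% of the summed FPKM of the Hist genes in every library. Counted as fragments, the other 46 genes held 554 to 612 in control libraries and 589 to 685 in CITED2-deficient ones.

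The abundant Hist genes had annotated transcripts that run past the stem-loop or lack it, apart from *Hist1h4k*, whose model holds only the coding sequence. Of the 20 Hist genes with a transcript that runs at least 100 bases past the stem-loop, 5 passed 1 FPKM (*Hist1h1c*, *Hist1h4i*, *Hist1h2bg*, *Hist3h2a* and *Hist1h2ae*), and the mean of the most abundant was 89.6 FPKM. None of the 12 genes whose transcripts end within 100 bases of the stem-loop did so, and their means ranged from 0.0241 to 0.854 FPKM. The medians of these classes were alike, at 0.21 FPKM for the 20 and 0.164 FPKM for the 12, so that the difference lay in a few abundant genes. The classes also differ in how much of their sequence is their own: the median share of 75-base stretches found in no other gene was 80.6% for the 20 genes, 53.6% for the 12, and 24.2% for genes whose model holds only the coding sequence. Its part in these levels was not tested. Among 8 genes without a stem-loop in the model, *Hist1h2bc* (36.5 FPKM) and *Hist2h2be* (3.33 FPKM) passed, and among 8 genes whose model holds only the coding sequence *Hist1h4k* (2.09 FPKM) passed. These are counts over genes of a few shared clusters, 40 of the 48 on chromosome 13, and no test was made.

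**Figure D1:**
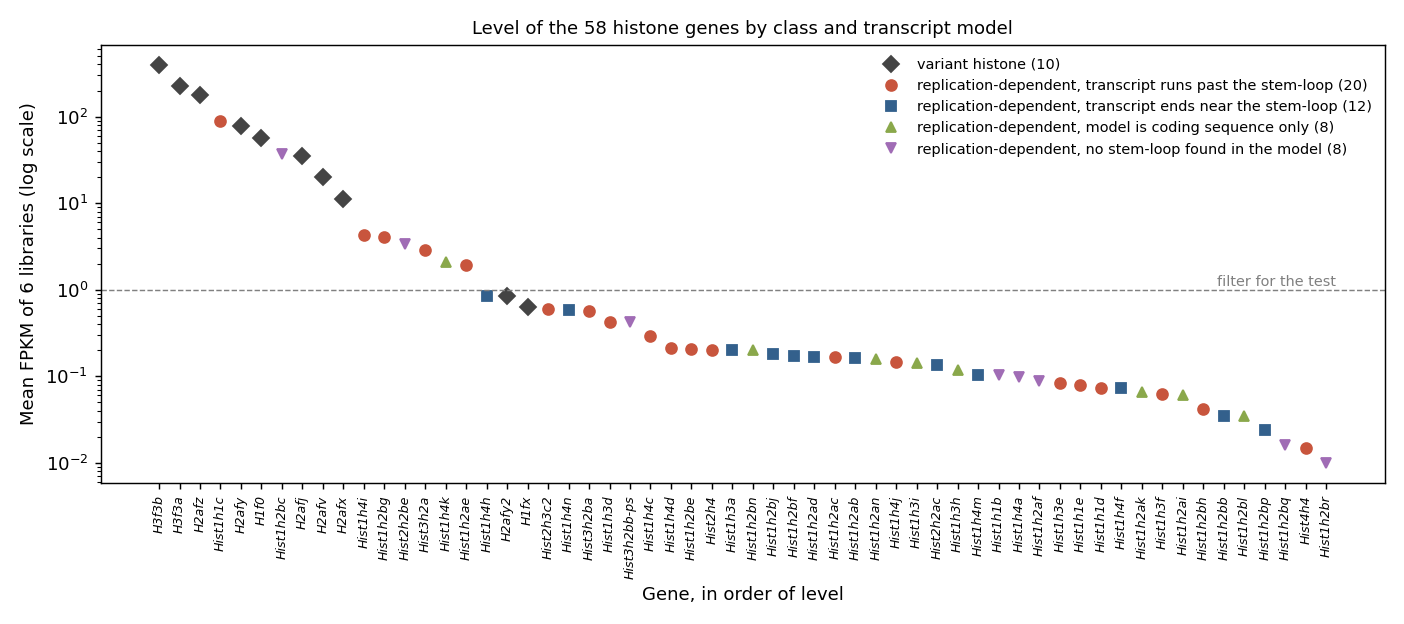
Mean FPKM of the 6 libraries (log axis) for the 58 histone genes in order of level, with the symbol showing the class and, for Hist genes, the transcript model; the dashed line is the filter of 1 FPKM. Variant genes take the top 3 places, *Hist1h1c* and *Hist1h2bc* lie among the abundant variants, and 40 Hist genes lie below the line.

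Many Hist genes are near-identical copies, and fragments that fit several copies can be lost or placed on 1 of them by the alignment. Of all 75-base stretches of a Hist gene below the filter, a median of 62.3% occurred in no other gene's transcripts, against 99.4% for the variant genes. For the tested Hist genes the median was 71.2%, with 31.9% for *Hist1h4k*. Of the 14 Hist genes with at least 80% of such stretches, *Hist1h1c* (93.3%) and *Hist2h2be* (100%) were tested, and the other 12 had means of 0.0149 to 0.562 FPKM.

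Genes of DNA replication were well above the Hist genes in the same libraries. *Pcna*, the sliding clamp of DNA polymerase, had 251, 277 and 248 FPKM in the control and 316, 298 and 301 FPKM in the CITED2-deficient libraries. *Top2a* and *Mki67*, which are used as proliferation markers, reached means of 15.4 and 5.16 FPKM over the 6 libraries. RNAs that are known to lack a poly(A) tail were mixed in level. The long nuclear RNA *Malat1* had 175 to 231 FPKM, the short *Rn7sk* 6.29 to 16.6 FPKM, and *Terc*, the telomerase RNA, at most 0.499 FPKM. The label of the libraries as depleted of ribosomal RNA stands beside low values for replication-dependent histone mRNAs, and the cause was not tested.

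Most variant histone genes were lower in CITED2-deficient BMDMs. Of the 8 variant genes that passed the filter, 6 were lower (*H1f0*, *H2afj*, *H2afv*, *H2afz*, *H3f3a* and *H2afy*), 1 was higher (*H3f3b*) and 1 did not pass the threshold (*H2afx*), beside 34.6% lower and 16.7% higher among all tested genes. After median-ratio scaling 5 were lower and 1 higher, beside 21.3% and 23.1% of all tested genes, since *H2afy* lost its call. Their median log2 fold change was -0.36, beside -0.10 over all tested genes. The groups did not overlap for 7 of the 8, and for 59.9% of all tested genes. In bulk RNA, fewer cells of a type that expresses a gene and less RNA per cell cannot be told apart.

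**Figure D2:**
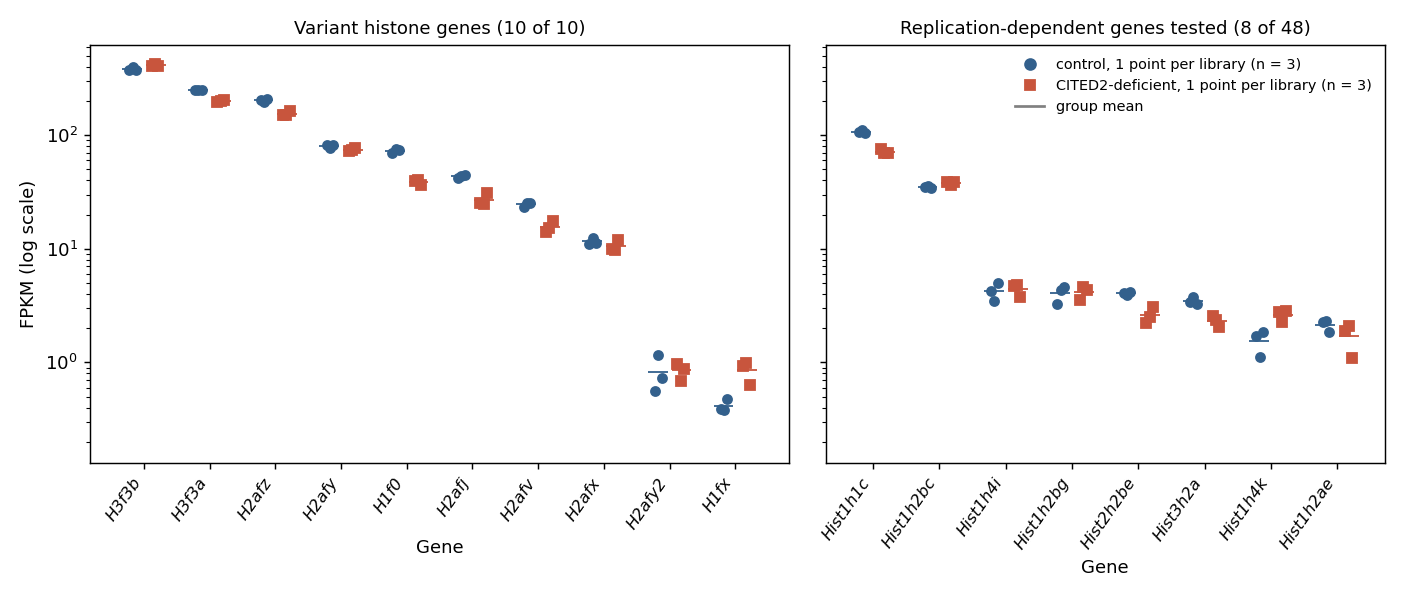
FPKM (log axis) of the 10 variant genes and the 8 tested Hist genes, with 1 point per library (3 control, 3 CITED2-deficient) and a line at the mean of each group. The groups are separate for *H1f0*, *H2afj*, *H2afv* and *Hist1h1c*, which were lower in CITED2-deficient BMDMs, and overlap for *H2afx*, *Hist1h4i* and *Hist1h2bg*.

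*H1f0* had the largest fall of the 16 tested histone genes. It (ENSMUSG00000096210, chromosome 15, 79028450 to 79030504 in mm10) encodes H1.0, the linker histone of differentiated and resting cells. Its FPKM was 70.3, 75.3 and 74.3 in control libraries and 39.4, 40.0 and 36.5 in CITED2-deficient libraries. The groups were far apart, with means of 73.3 ± 2.64 and 38.7 ± 1.88 (SD, n = 3), a 1.9-fold lower level. The log2 fold change was -0.91 (SE 0.046, adjusted p = 4.77e-07, limma). *H1fx*, the other variant linker histone, was below the filter, with 0.391, 0.380 and 0.477 FPKM against 0.938, 0.982 and 0.630 FPKM. These stand for 9, 8 and 11 fragments in control and 29, 27 and 20 fragments in CITED2-deficient libraries, so that *H1fx* was higher in each CITED2-deficient library. Its call depended on the test, with an adjusted p of 0.0323 from limma without the filter and of 0.0845 from limma-voom on fragments.

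The replication-dependent linker histone *Hist1h1c* (ENSMUSG00000036181, chromosome 13, 23738808 to 23740367) moved the same way as *H1f0*. It had 107, 111 and 104 FPKM in control libraries and 75.5, 70.3 and 69.3 FPKM in CITED2-deficient libraries. These values rest on 2475 to 3147 fragments per library. The log2 fold change was -0.58 (SE 0.042, adjusted p = 4.92e-06, limma), a 1.5-fold lower level with no overlap. Of the summed FPKM of the 6 H1 genes, the variants *H1f0* and *H1fx* gave 39.8 to 41.7% in control and 34.7 to 36.8% in CITED2-deficient libraries.

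The genes of histone H3.3, *H3f3a* and *H3f3b*, encode the same protein and moved in opposite directions. H3.3 replaces canonical H3 outside S phase. *H3f3a* (chromosome 1, 180800832 to 180813943) had 251 FPKM in each of the 3 control libraries and 195, 199.5 and 204 FPKM in the CITED2-deficient libraries. It was lower in every CITED2-deficient library, and the log2 fold change was -0.33 (SE 0.028, adjusted p = 1.31e-05, limma). *H3f3b* (chromosome 11, 116021912 to 116027962) had 377, 397 and 379 FPKM in control and 409, 427 and 405 FPKM in CITED2-deficient libraries. The rise was small, with a log2 fold change of 0.11 (SE 0.032, adjusted p = 0.0217, limma) and no overlap. It missed the threshold without control replicate 1 (adjusted p = 0.0801), without control replicate 3 (0.0768) and without CITED2-deficient replicate 2 (0.0672), and the adjusted p ranged from 0.00128 to 0.0926 over all alternatives.

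*H3f3b* gave 60.0 to 61.2% of the FPKM of this pair in control and 66.5 to 68.2% in CITED2-deficient libraries. The summed level of both genes moved little. It was 628, 648 and 630.1 FPKM against 604, 627 and 609.8 FPKM, a ratio of 0.965 of CITED2-deficient to control that became 1.04 after median-ratio scaling. The 7 H3 genes of the Hist clusters added 1.26 to 1.37 FPKM in control and 1.28 to 2.73 FPKM in CITED2-deficient libraries. H3.3 genes thus gave 99.6 to 99.8% of all FPKM of the listed H3 genes.

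The H2A.Z genes fell together. H2A.Z is an H2A variant found at nucleosomes beside transcription start sites, and it is encoded by *H2afz* and *H2afv*. *H2afz* (chromosome 3, 137864487 to 137866922) had 206, 195 and 210.1 FPKM in control and 152, 152 and 162 FPKM in CITED2-deficient libraries, a log2 fold change of -0.39 (SE 0.040, adjusted p = 4.47e-05, limma). *H2afv* (chromosome 11, 6427229 to 6444443) had 23.2, 25.5 and 25.4 FPKM against 14.1, 15.1 and 17.6 FPKM, a log2 fold change of -0.64 (SE 0.079, adjusted p = 0.000157, limma). Neither gene had overlapping groups.

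*H2afj*, which encodes the H2A.J variant known to build up in senescent cells, was 1.61-fold lower. Its FPKM was 41.7, 44.2 and 44.7 in control and 25.5, 24.6 and 31.3 in CITED2-deficient libraries, with a log2 fold change of -0.67 (SE 0.082, adjusted p = 0.000139, limma). *H2afx* encodes H2A.X, which is phosphorylated at DNA breaks. It had 11.0, 12.5 and 11.3 FPKM against 9.98, 9.76 and 12.0 FPKM, and the overlapping groups gave an adjusted p of 0.237 (limma).

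The macroH2A genes, whose proteins carry a large additional domain and are linked to silent chromatin, differed little. *H2afy* had 82.0, 77.1 and 82.4 FPKM against 72.0, 74.3 and 76.8 FPKM. It passed the threshold narrowly (log2 fold change -0.11, adjusted p = 0.0413, limma). It missed it after median-ratio scaling (log2 fold change -0.011, adjusted p = 0.855) and in 9 of 17 alternatives in all, among them those without control replicate 1 (0.123), control replicate 3 (0.129), CITED2-deficient replicate 1 (0.124) and CITED2-deficient replicate 2 (0.0818). *H2afy2* was below the filter, at 0.559, 1.17 and 0.728 FPKM against 0.977, 0.692 and 0.881 FPKM, and its groups overlapped. The 6 H2A variant genes together gave 355 to 375 FPKM in control and 274 to 300.4 FPKM in CITED2-deficient libraries, and they made up 97.9 to 98.6% of the FPKM of the listed H2A genes. This share too holds for counted values only, since Hist H2A genes share much of their sequence.

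**Figure D3:**
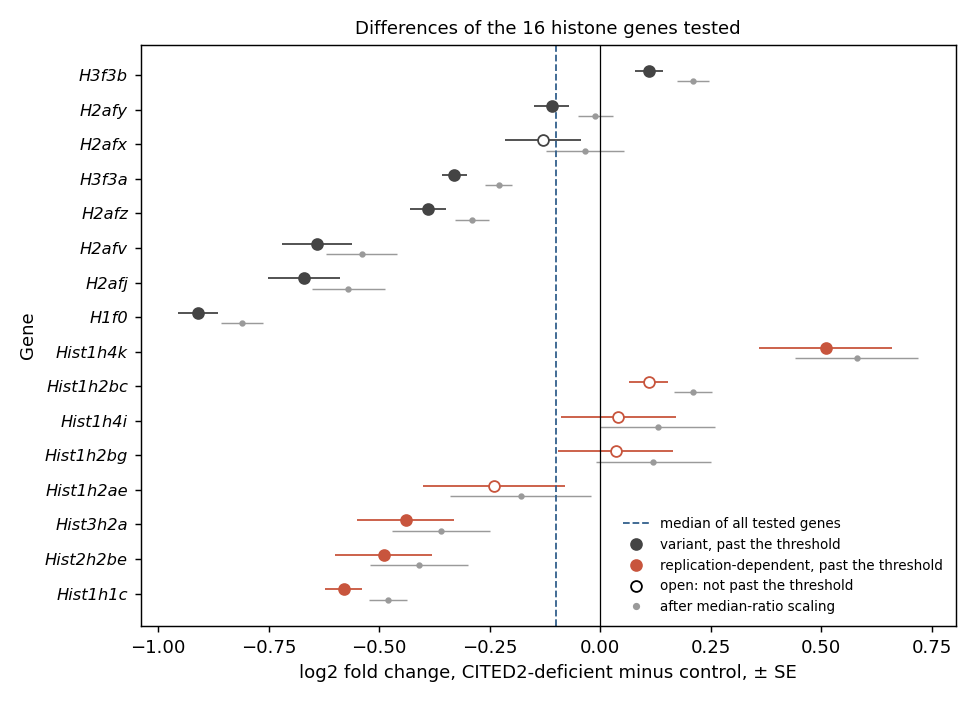
Log2 fold change (CITED2-deficient minus control) with its standard error for the 16 tested histone genes, filled where past the threshold; grey points are the same after median-ratio scaling and the dashed line is the median of all tested genes. *H1f0*, *H2afj*, *H2afv* and *Hist1h1c* lie farthest to the left, and *Hist1h4k* and *H3f3b* to the right.

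Among the 8 Hist genes tested, 3 were lower, 1 was higher and 4 did not pass the threshold. These counts stand close to the background of 34.6% lower and 16.7% higher, and their median log2 fold change of -0.10 equals that of all tested genes to this precision. The groups did not overlap for 5 of the 8, beside 59.9% of all tested genes. *Hist1h1c*, described above, was the most abundant.

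*Hist2h2be*, an H2B gene whose transcript of 2620 bases has no stem-loop in the annotation, had 4.06, 3.95 and 4.13 FPKM in control and 2.24, 2.52 and 3.10 FPKM in CITED2-deficient libraries. It was lower in each of these, with a log2 fold change of -0.49 (SE 0.11, adjusted p = 0.00542, limma). *Hist3h2a*, an H2A gene on chromosome 11, had 3.40, 3.75 and 3.29 FPKM against 2.57, 2.35 and 2.04 FPKM, with a log2 fold change of -0.44 (SE 0.11, adjusted p = 0.00792, limma). Exons of *Trim17* on the same strand overlap it, and *Trim17* itself had 0.118 to 0.357 FPKM in the 6 libraries.

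*Hist1h2bc* had 35.3, 35.8 and 34.1 FPKM in control and 39.1, 36.3 and 38.6 FPKM in CITED2-deficient libraries. Every CITED2-deficient library was above the controls, but the log2 fold change of 0.11 did not pass (adjusted p = 0.0611, limma). After median-ratio scaling it was 0.21 and passed (adjusted p = 0.0036), as it did without CITED2-deficient replicate 2 (adjusted p = 0.033) and in 4 of 17 alternatives in all, over a range of 0.0036 to 0.176 among the alternatives. *Hist1h4k* was called higher on few fragments. Its counts were 10, 6 and 11 fragments in control and 22, 16 and 23 in CITED2-deficient libraries, and the FPKM was 1.70, 1.11 and 1.86 against 2.77, 2.27 and 2.82. The log2 fold change was 0.51 (SE 0.15, adjusted p = 0.0163, limma), but without CITED2-deficient replicate 3 the adjusted p was 0.0598, and limma-voom on the fragments gave 0.14 to 0.203. Since 31.9% of its 75-base stretches are unique to it, its fragments cannot be assigned to it with certainty.

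The other tested Hist genes had overlapping groups. *Hist1h4i* had 3.50 to 5.01 FPKM in control and 3.74 to 4.81 in CITED2-deficient libraries, *Hist1h2bg* had 3.25 to 4.61 and 3.57 to 4.59, and *Hist1h2ae* had 1.87 to 2.30 and 1.09 to 2.08. Their adjusted p-values were 0.808, 0.836 and 0.243 (limma).

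Of the 40 Hist genes below the filter, *Hist1h4h* stood highest. This H4 gene, whose transcript ends 46 bases behind the stem-loop shown above, had 11, 12 and 14 fragments in control and 3, 1 and 6 fragments in CITED2-deficient libraries, although the latter were sequenced more deeply. Its FPKM was 1.24, 1.48 and 1.57 against 0.251, 0.0942 and 0.489, without overlap. Limma-voom over the 17463 genes with at least 10 fragments in all, a test chosen after seeing the data, gave a log2 fold change of -2.37 (SE 0.66, adjusted p = 0.00612). Limma without the filter gave -0.94 on the log2(FPKM + 1) scale (adjusted p = 0.00271). By limma-voom, 4 of the 31 Hist genes with enough fragments were lower (*Hist1h1c*, *Hist2h2be*, *Hist3h2a* and *Hist1h4h*) and 0 higher, beside 25.0% and 14.0% of all genes in that test. At an unadjusted p below 0.05, 1 of them was higher. This was *Hist1h3d* (log2 fold change 1.23, adjusted p = 0.0761, limma-voom), with 9, 4 and 4 fragments against 19, 22 and 14. Limma without the filter called *Hist2h2ac* higher (adjusted p = 0.0115) on 0, 0 and 1 fragments against 3, 3 and 3.

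The remaining abundant members of this low group showed no call in either test. *Hist2h3c2*, an H3 gene, had 9, 9 and 8 fragments in control and 27, 12 and 18 in CITED2-deficient libraries. *Hist1h4n* had 2, 6 and 12 fragments against 3, 2 and 6, and *Hist3h2ba* had 7, 6 and 4 against 5, 11 and 12. The pseudogene *Hist3h2bb-ps* had 2, 5 and 1 fragments against 7, 6 and 5, and *Hist1h4c* had 2, 7 and 9 against 3, 6 and 2.

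Together the 40 genes had 103, 112 and 114 fragments in control and 198, 134 and 152 in CITED2-deficient libraries, with 25, 23, 25, 33, 23 and 26 of the genes detected. CITED2-deficient replicate 1 thus held the most. Per length and depth the sums were 6.62, 7.91 and 7.83 FPKM against 9.15, 5.91 and 6.91 FPKM and overlapped. There were 0 fragments in all 3 control libraries for 5 of these genes and in all 3 CITED2-deficient libraries for 2. No gene among the 22248 with a deposited value was at 0 in all 6 libraries. Hist genes without a fragment in any library would therefore not be among the 48.

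**Figure D4:**
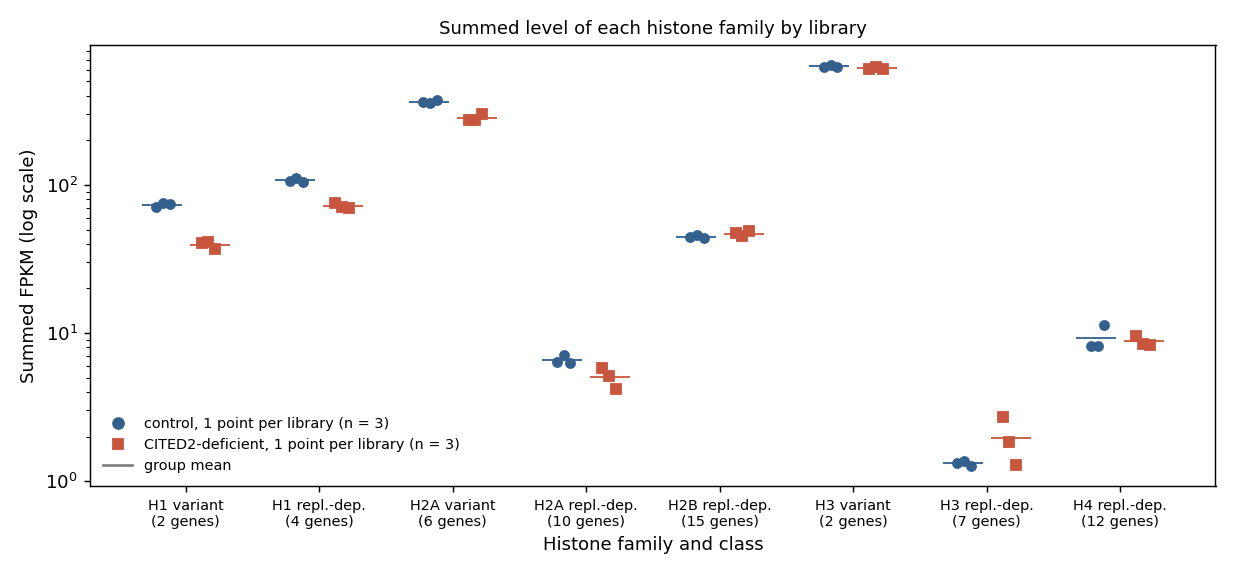
Summed FPKM (log axis) of the variant and the replication-dependent genes of each histone family, with 1 point per library (3 control, 3 CITED2-deficient) and a line at each group mean. H1 and H2A sums of both classes were lower in CITED2-deficient BMDMs with no overlap, and the replication-dependent H2B, H3 and H4 sums overlapped between groups.

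The summed FPKM of both classes was lower in CITED2-deficient BMDMs. The 48 Hist genes summed to 168, 174 and 167 FPKM in control and 141, 131 and 132 FPKM in CITED2-deficient libraries, a ratio of 0.795 that was 0.854 after median-ratio scaling. Without *Hist1h1c* and *Hist1h2bc* the sums were 25.6, 26.8 and 28.6 FPKM against 26.9, 24.5 and 24.0 FPKM and overlapped. The 10 variant genes summed to 1063, 1079 and 1079 FPKM against 919, 944 and 947 FPKM, a ratio of 0.872 that was 0.937 after median-ratio scaling. Variant genes made up 86.1 to 86.6% of all histone FPKM in control and 86.7 to 87.8% in CITED2-deficient libraries. Fragments of near-identical Hist genes can be lost, so these shares hold for counted values only. By family, the H2B sum was 43.6 to 45.8 FPKM in control and 45.1 to 48.6 in CITED2-deficient libraries, mostly from *Hist1h2bc*, and the H4 sum was 8.15 to 11.4 and 8.31 to 9.62 FPKM.

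Of 16 tested genes that act in the transcription, 3′ end processing or decay of histone mRNA, 8 were lower and 2 higher. These counts stand beside 34.6% and 16.7% of all tested genes. The median log2 fold change of the list was -0.11, close to that of all tested genes. After median-ratio scaling 3 were lower and 2 higher, beside 21.3% and 23.1%. *Slbp*, which encodes the stem-loop binding protein, had 26.7, 24.8 and 26.9 FPKM in control and 20.4, 21.2 and 22.2 in CITED2-deficient libraries (log2 fold change -0.28, adjusted p = 0.00186, limma). *Ncbp2*, a subunit of the nuclear cap-binding complex, had the largest fall (-0.42, adjusted p = 0.000207). *Lsm10*, a subunit of the U7 particle, fell by 0.32 on the log2 scale (adjusted p = 0.0104), but missed the threshold after median-ratio scaling (adjusted p = 0.0553). *Cstf2*, a cleavage factor shared with polyadenylation, rose from 10.6 ± 0.339 to 13.9 ± 0.762 FPKM (SD, n = 3; log2 fold change 0.36, adjusted p = 0.00109, limma).

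**Figure D5:**
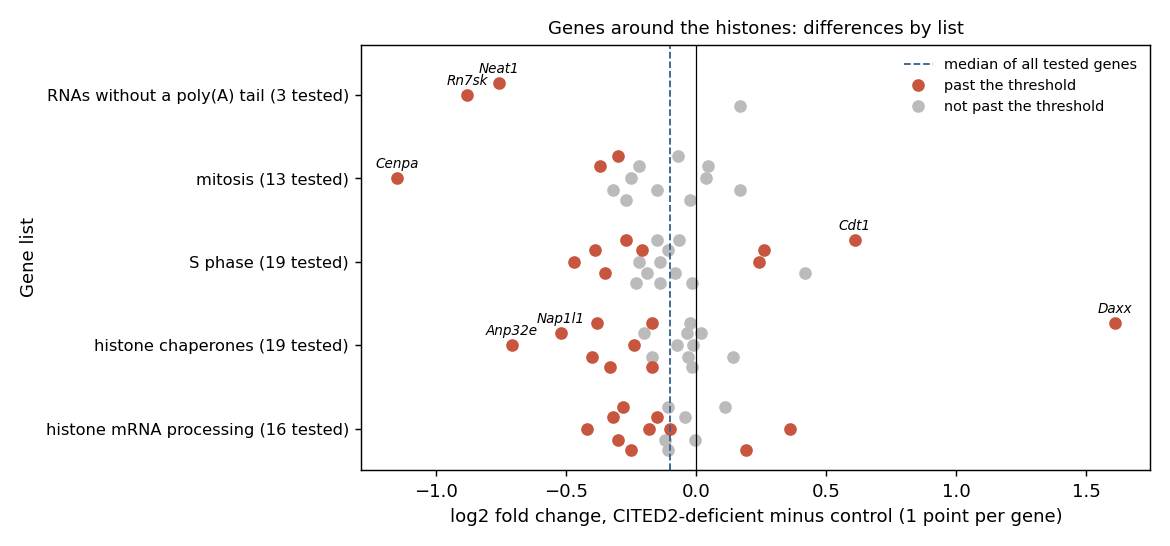
Log2 fold change (CITED2-deficient minus control) of each tested gene in 5 lists of genes that act with histones or serve as reference, colored where past the threshold; the dashed line is the median of all tested genes. *Daxx* lies far to the right and *Cenpa* far to the left, while most S phase genes lie between -0.5 and 0.5.

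Histone chaperones carry histones to DNA, and *Daxx* had the largest rise among the 19 tested. *Daxx*, whose protein deposits H3.3 together with ATRX, had 45.6, 44.8 and 50.2 FPKM in control and 137, 149.7 and 148 FPKM in CITED2-deficient libraries. This is a log2 fold change of 1.61 (SE 0.052, adjusted p = 2.29e-08, limma), or a 3.09-fold higher level. *Atrx* had overlapping groups (adjusted p = 0.396), and so did *Hira*, the core of the other H3.3 deposition complex (adjusted p = 0.937). *Ubn1*, a partner of HIRA, was lower (log2 fold change -0.40, adjusted p = 8.88e-05). *Anp32e*, which removes H2A.Z from nucleosomes, fell from 64.9 ± 4.47 to 39.3 ± 2.44 FPKM (log2 fold change -0.71, adjusted p = 1.44e-05). *Nap1l1*, a chaperone of H2A and H2B, fell from 119.8 ± 2.08 to 83.3 ± 3.44 FPKM (log2 fold change -0.52, adjusted p = 4.77e-06). In all, 8 of 19 tested chaperone genes were lower and 1 was higher, beside 34.6% and 16.7% of all tested genes. With median-ratio scaling 6 were lower and 3 higher, beside 21.3% and 23.1%.

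The S phase genes were mixed in direction. Of 19 tested S phase genes, 3 were higher and 5 lower, beside 16.7% and 34.6% of all tested genes. After median-ratio scaling 3 were higher and 3 lower, beside 23.1% and 21.3%. *Cdt1*, which licenses replication origins, rose (log2 fold change 0.61, adjusted p = 8.8e-06, limma), as did *Pcna* (0.24, adjusted p = 0.00212), whereas *Mcm3*, a subunit of the replicative helicase, fell (-0.47, adjusted p = 4.22e-05) and *E2f1*, a transcription factor of S phase genes, fell (-0.39, adjusted p = 0.000362). Of 13 mitosis genes 3 were lower and 0 higher by limma, beside the same 34.6% and 16.7%. After median-ratio scaling 2 were lower and 0 higher, beside 21.3% and 23.1%. At an unadjusted p below 0.05, 0 were higher. *Cenpa*, the H3 variant of centromeres, which lies outside the symbols taken here, had 49.3, 47.0 and 42.2 FPKM against 22.3, 19.6 and 18.8 FPKM (log2 fold change -1.15, adjusted p = 2.21e-06). *Cdk1* and *Top2a* were lower by less (-0.37, adjusted p = 0.02, and -0.30, adjusted p = 0.00262), and *Mki67* did not pass (adjusted p = 0.0665). *Cdk1* missed the threshold after median-ratio scaling (adjusted p = 0.0632), and *Mki67* passed by limma-voom (-0.34, adjusted p = 0.00499). Among RNAs of which some or all forms lack a poly(A) tail, 6 of 11 were listed and 3 tested. A value per gene does not separate such forms. *Rn7sk*, which holds the elongation factor P-TEFb, was lower (log2 fold change -0.88, adjusted p = 0.000185), as was *Neat1*, the scaffold of paraspeckles (-0.76, adjusted p = 2.58e-06), and *Malat1* did not pass (0.17, adjusted p = 0.0549). *Malat1* was called higher after median-ratio scaling (0.27, adjusted p = 0.00822) and by limma-voom (0.17, adjusted p = 0.00439).

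Markers of macrophages and of other cells moved between the groups. Of 7 tested macrophage markers, 4 were lower and 1 higher, beside 34.6% and 16.7% of all tested genes. After median-ratio scaling 4 were lower and 3 higher, beside 21.3% and 23.1%. The mean of *Itgam* fell from 89.7 to 50.9 FPKM, and that of *Fcgr1* rose from 172 to 482 FPKM. All 7 tested fibroblast markers were higher in CITED2-deficient libraries, beside 16.7% of all tested genes. Their list of 8 summed to 43.6 to 51.8 FPKM in control and 175 to 553 in CITED2-deficient libraries. The sum was highest in CITED2-deficient replicate 1, although *Lum* was at most 0.281 FPKM. Of 9 tested genes of neutrophil precursors, 7 were lower and 1 higher, beside 34.6% and 16.7% of all tested genes. That list summed to 744 to 813 FPKM in control and 662 to 780.4 FPKM in CITED2-deficient libraries. Among these, *Mpo* had 13.6 to 17.8 FPKM in control and 1.70 to 2.24 in CITED2-deficient libraries. The gene called higher was *Ltf*, whose mean rose from 94.3 to 177 FPKM. Erythroid, T cell, dendritic cell, and mast cell and basophil markers summed to at most 1.84 FPKM in any library, and 5 B cell markers to at most 4.09 FPKM. Their part in the histone results was not tested. Without CITED2-deficient replicate 1, 3 Hist genes were lower and 1 higher, and 5 variant genes were lower and 1 higher. Of all 11677 genes in that fit, 3698 were lower and 1756 higher. *Col1a1* also stood at 62 and 62.6 FPKM in CITED2-deficient replicates 2 and 3, against 14.2 to 16.6 in control libraries. Leaving out replicate 1 therefore cannot set such markers apart from the histone results.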

How the data were processed

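Total RNA of 6 BMDM libraries (3 control, 3 CITED2-deficient) was depleted of ribosomal RNA and sequenced as stranded libraries. STAR served for alignment to mm10, and from Cuffdiff and the GENCODE annotation the authors deposited 1 FPKM value per gene and library. Tool versions: not given in the sources used here. Column names of the deposited table use older symbols (Mrg1 for *Cited2*), which were matched to the labels. FPKM are scaled to library size, so strongly changed genes shift all others. Whether the counting used strand is not stated, so that values of genes with antisense neighbours are less certain.

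Each FPKM was turned into fragments by means of transcript lengths averaged per gene in GENCODE vM21, and for 21355 of 22220 matched genes (96.1%) the results were whole to within 0.02 in every library. All 58 histone genes did. Genes with a mean of at least 1 FPKM were tested on log2(FPKM + 1), a pseudocount of 1, with limma 3.58.1 (R 4.3.3), with the trend of the variance fitted and Benjamini-Hochberg adjustment, and the fit was tested on simulated data. An exact permutation test of 3 against 3 libraries cannot give a p below 0.1. Replicates differed by more than sampling noise (mean chi-square per gene 2.26 to 5.88), and none was counted as a duplicate.

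The members, the gene lists and the rule for named genes were chosen with earlier results of these data known. The text names *Cited2*, all variant histone genes, the 15 most abundant Hist genes, the largest changes among Hist genes past the threshold, and from each other list the 3 largest changes and genes whose role is needed. *Hist2h2ac*, *Trim17* and the marker genes named were chosen after their values were seen. Alternatives were other pseudocounts, filters, scalings, limma settings, a replicate block and each library left out. Limma-voom on recovered fragments was chosen after seeing the data.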

Additional observations from a re-analysis of the deposited data

How the results depend on the processing

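The number of Hist genes called higher was 1 and became 2 with median-ratio scaling, 2 with quantile normalization, 2 with array weights, 0 with a filter at a mean of 5 FPKM, and 0 in both limma-voom fits. It was 0 to 2 when 1 library was left out. The number called lower was 3 and became 1 with the filter at 5 FPKM, which leaves 2 Hist genes in the test. The number of variant genes called higher was 1, became 0 without the variance trend, and was 0 to 1 when 1 library was left out. The median log2 fold change of Hist genes was -0.10. It reversed to 0.0252 without a filter and 0.12 with limma-voom at a minimum of 10 fragments, which add genes near 0, and was -0.23 with the filter at 5 FPKM and -0.19 with limma-voom on the filtered genes. With 1 library left out it was -0.35 to -0.0312, lowest without CITED2-deficient replicate 2. The median of variant genes was -0.36, and -0.23 without a filter, -0.26 with median-ratio scaling, -0.23 with limma-voom at the lower minimum, and -0.38 to -0.34 with 1 library left out. The ratio of summed FPKM moved from 0.795 to 0.854 for Hist genes with median-ratio scaling, and from 0.872 to 0.937 with that scaling and 0.899 with quantile normalization for variant genes. Among single genes, *Hist1h4i* reversed to -0.0014 with array weights and was at -0.068 to 0.14 with 1 library left out (-0.068 and -0.015 without control replicate 2 and CITED2-deficient replicate 2). *Hist1h2bg* reversed to -0.085 and -0.024 without control replicate 1 and CITED2-deficient replicate 2. Neither gene was called in any setting. *H1f0*, *H2afj*, *H2afv*, *H2afz*, *H3f3a*, *Hist1h1c*, *Hist2h2be* and *Hist3h2a* kept their direction and call in every alternative that tested them. The count over all tested genes was 5994, of which 32.5% were higher, against 52.1% of 5195 with median-ratio scaling. Deviations of same-numbered libraries were hardly correlated (r = 0.00784 to 0.0402 across genes), and those of differently numbered libraries had r = -0.0521 to 0.0354. These values cannot show whether same-numbered libraries were prepared together, and the labels give only a number. With the replicate block 5708 genes were called, and *H2afy* missed the threshold (adjusted p = 0.055), which left 5 variant genes lower, 1 variant gene higher and 1 Hist gene higher. Where not stated otherwise, the cause was not tested. Low fragment numbers limit what can be seen for the 40 Hist genes below the filter.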

Other observations

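Relatives of the H3.3 genes outside the symbols taken above were listed at low levels. The processed pseudogene *H3f3a-ps1* (chromosome X, 101824515 to 101824924) had 5.16, 5.78 and 7.46 FPKM in control and 4.22, 4.97 and 4.67 FPKM in CITED2-deficient libraries, and its log2 fold change of -0.33 (adjusted p = 0.046, limma) equals that of *H3f3a* to this precision. It missed the threshold after median-ratio scaling (log2 fold change -0.25, adjusted p = 0.134). *H3f3c*, annotated as a processed pseudogene, had 0.844 to 2.05 FPKM in control and 0.431 to 1.05 FPKM in CITED2-deficient libraries, and *H3f3a-ps2* had 0.772 to 1.16 and 0.670 to 0.754 FPKM. *H3f3aos*, which lies antisense to *H3f3a*, had 7 to 21 and 8 to 23 fragments, and its groups overlapped. These genes were chosen after their values were seen.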
